A study of Mus musculus and Homo sapiens with 12 samples.

Results

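Small nuclear RNA (snRNA), small nucleolar RNA (snoRNA) and small Cajal body-specific RNA (scaRNA) genes were followed in chromatin-associated RNA (caRNA). Members were the genes that GENCODE gives the biotype snRNA, snoRNA or scaRNA and that had at least 20 counts summed over the 6 libraries of a cell line, so they were chosen by their counts summed over Input and IP. In wild-type mouse embryonic stem cells (mESC), 94 of 2941 annotated genes of these biotypes qualified, out of 54446 genes in all: 58 of 1383 snRNA genes, 33 of 1507 snoRNA genes and 3 of 51 scaRNA genes. In wild-type K562 cells, an established human leukaemia line, 38 of 2890 qualified, out of 58721 genes: 31 of 1900 snRNA genes and 7 of 941 snoRNA genes, and none of the 49 scaRNA genes had a count. Just inside the minimum lay mouse Snora43, with 20 counts, and Gm24463, with 21, and human RNU6-1055P, RNU6-3P and RNU6-480P, with 20 each; just outside lay mouse Gm24242 and Gm24705, with 19 each, and a human entry with 18.

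The study fragmented caRNA and sequenced it before (Input) and after immunoprecipitation with an antibody against 5-methylcytosine (m5C; IP), as 3 Input and 3 IP libraries per line and 12 libraries in 4 groups. The mESC were grown with serum, leukaemia inhibitory factor, CHIR99021 and PD0325901 and moved across gelatin to remove feeder cells, and the K562 cells were grown with serum. The labels add puromycin for K562, which the study's methods name only for its transduced lines. Both lines are labelled wild type, no treatment was compared, and each is 1 line. The labels do not say whether replicates came from separate cultures, so p-values measure the spread between these libraries, which may be technical.

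The snRNAs are the RNA cores of the spliceosome: U1 and U2 recognise the 5′ splice site and the branch point, U4, U5 and U6 join them as a tri-snRNP, and U11, U12 and U6atac serve the rare minor introns. Box C/D snoRNAs guide ribose methylation and H/ACA snoRNAs guide pseudouridylation of ribosomal RNA, a few (U3, U8) direct cleavage of its precursor instead, and scaRNAs guide the same modifications on snRNAs in Cajal bodies. Most vertebrate snoRNAs are cut from the introns of host genes, whereas snRNAs, U3, U8 and U13 have promoters of their own, and many lie among near-identical copies and pseudogenes.

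U3 is printed first, since its 1 mouse member and 3 of its human members were called higher in IP (1 of the 3, SNORD3B-2, on 4 IP counts) and no U3 gene was called lower. U1 and U2 follow because near-identical copies of each took different calls in the edgeR fit, and such copies can share reads. Fully identical copies differed in their calls as well. Gm24950 has the sequence of Gm23971 and Gm25679 that of Gm23804, and the calls differed within each pair. The part of the marked bases in the calls was not tested. The U2 calls moved with the scaling and filter. Each sequence is the GENCODE transcript, 5′ to 3′ and written as DNA (GRCm38 for mouse, GRCh38 for human). Capitals mark bases that differ from the first sequence of the same set.
Gm24949: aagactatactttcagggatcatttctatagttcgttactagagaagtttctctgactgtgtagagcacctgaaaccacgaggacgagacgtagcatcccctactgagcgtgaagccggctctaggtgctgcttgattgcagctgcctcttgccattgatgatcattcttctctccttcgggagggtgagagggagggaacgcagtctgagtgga
Rnu3b4: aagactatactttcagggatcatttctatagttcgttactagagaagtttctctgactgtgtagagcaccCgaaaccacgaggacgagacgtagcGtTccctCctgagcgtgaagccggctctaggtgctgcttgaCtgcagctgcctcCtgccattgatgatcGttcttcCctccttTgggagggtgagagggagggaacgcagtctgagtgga
Gm23927: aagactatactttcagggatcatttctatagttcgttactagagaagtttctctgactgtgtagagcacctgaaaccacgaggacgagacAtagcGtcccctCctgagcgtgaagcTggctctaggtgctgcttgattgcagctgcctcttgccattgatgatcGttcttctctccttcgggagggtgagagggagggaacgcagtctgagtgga
SNORD3A: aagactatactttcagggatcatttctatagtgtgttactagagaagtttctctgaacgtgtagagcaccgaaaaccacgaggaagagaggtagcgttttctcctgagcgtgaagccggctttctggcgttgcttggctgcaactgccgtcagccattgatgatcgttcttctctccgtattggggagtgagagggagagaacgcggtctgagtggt
SNORD3C: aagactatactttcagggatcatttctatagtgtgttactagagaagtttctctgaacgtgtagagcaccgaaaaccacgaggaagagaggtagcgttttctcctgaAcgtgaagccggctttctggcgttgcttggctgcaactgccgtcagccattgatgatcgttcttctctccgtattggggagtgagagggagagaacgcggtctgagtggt
RNU1-27P: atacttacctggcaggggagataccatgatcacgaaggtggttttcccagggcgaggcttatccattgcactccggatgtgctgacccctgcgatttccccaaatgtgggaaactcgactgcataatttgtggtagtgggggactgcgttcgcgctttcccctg
RNVU1-31: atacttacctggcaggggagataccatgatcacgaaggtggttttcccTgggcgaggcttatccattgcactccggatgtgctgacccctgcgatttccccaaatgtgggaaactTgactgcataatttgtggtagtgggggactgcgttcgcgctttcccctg
Gm25189: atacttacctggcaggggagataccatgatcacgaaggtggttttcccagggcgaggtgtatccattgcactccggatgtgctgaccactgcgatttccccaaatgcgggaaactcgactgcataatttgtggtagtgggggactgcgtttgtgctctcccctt
Gm23804: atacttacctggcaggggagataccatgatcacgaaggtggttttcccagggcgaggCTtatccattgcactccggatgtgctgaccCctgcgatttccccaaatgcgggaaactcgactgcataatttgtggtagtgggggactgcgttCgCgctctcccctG
Gm23971: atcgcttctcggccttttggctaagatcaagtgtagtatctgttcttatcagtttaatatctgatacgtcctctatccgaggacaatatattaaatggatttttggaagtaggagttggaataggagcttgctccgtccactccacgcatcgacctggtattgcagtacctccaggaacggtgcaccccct
Gm25360: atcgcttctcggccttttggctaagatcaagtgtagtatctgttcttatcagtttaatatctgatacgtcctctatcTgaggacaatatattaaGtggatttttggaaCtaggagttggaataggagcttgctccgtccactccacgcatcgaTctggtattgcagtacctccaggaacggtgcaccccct
Gm24922: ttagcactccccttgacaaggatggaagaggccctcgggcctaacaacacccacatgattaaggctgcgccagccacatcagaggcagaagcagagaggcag

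The mouse U3 set is Gm24949 (ENSMUSG00000098425, chr11:96032678-96032892, plus strand), Rnu3b4 (chr11:87462286-87462500, plus; 9 differences) and Gm23927 (chr19:4078298-4078512, minus; 5 differences). The sequence of Rnu3b4 is shared by 4 annotated genes. Of the human U3 genes, the first 217 bases of the annotated transcript are shown, up to the match of the last bases of the mouse gene, at chr17:19188016-19188232 on the plus strand for SNORD3A (ENSG00000263934) and chr17:19190029-19190245 on the minus strand for SNORD3C, with 1 difference. The human U1 pair is RNU1-27P (chr14:34546714-34546877, plus), whose sequence 8 annotated genes share, and RNVU1-31 (chr1:145465617-145465780, minus), with 2 differences. The mouse U1 pair is Gm25189 (chr2:117248271-117248434, plus) and Gm23804 (chr12:54714218-54714381, plus), with 6 differences, and 7 genes share the sequence of Gm23804. The mouse U2 pair is Gm23971 (chr11:101645740-101645930, minus), shared by 4 genes, and Gm25360 (chr1:72226240-72226430, plus), with 4 differences. Gm24922 (chr12:32999909-33000010, minus) stands alone, because its counts all came from IP libraries.

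Gene counts summed to between 29007088 and 34752646 in the mESC Input libraries, 473398 and 592324 in mESC IP, 10477119 and 11865285 in K562 Input, and 93110 and 111286 in K562 IP. Input was thus 58.5 times as deep as IP in mESC and 108 times in K562, and 3 counts correspond to 5.06 to 6.34 CPM (the count scaled to a common total of gene counts per library) in a mESC IP library and to 27.0 to 32.2 CPM in a K562 IP library. At equal CPM a gene needs 176 Input counts in mESC, or 325 in K562, to give 3 counts over the 3 IP libraries. In mESC 30 of the 94 members reached that depth, and in K562 none of the 38 did, with at most 2.41 IP counts at equal CPM, so a level lower in IP was not detectable for the K562 members. Of the pluripotency markers, 5 of 6 were counted in mESC Input (1396 to 1412 CPM summed, Sox2 at 0), and the 6 fibroblast markers summed to 52.7 to 55.5 CPM with Lum at 0. The 8 erythroid markers of K562 summed to 463 to 471 CPM in K562 Input with HBG2 and HBE1 at 0, and the 6 markers of other blood cells to 76.4 to 77.3 CPM with MS4A1 at 0.

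Whether a gene of these biotypes was counted at all went with its position. Of the 995 mouse genes lying inside another gene on the same strand (818 in an intron, 177 over an exon), 0 had a count in any of the 6 libraries. Of the 523 with a gene on the other strand only, 163 had counts and 17 became members, and of the 1390 outside other genes, 340 had counts and 76 became members. The remaining member, Snora43, overlaps a second entry of these biotypes. Well-known intron-encoded or exon-overlapping RNAs were at 0 in mESC, among them Snord14a in Rps13, Snord14c in Hspa8, Snora73a and Snora73b in Rcc1, and the histone pre-mRNA processing RNA Rnu7.

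In K562, 11 of 1263 genes inside another gene on their strand had counts, 83 counts in all, against 98 of 665 with a gene on the other strand only and 143 of 946 outside other genes. Only 2 members were intronic: RNU6ATAC6P in HTR1F (9, 10 and 10 Input counts) and RNU6-3P in LDOC1 (5, 8 and 7 Input counts), both with 0 in every IP library. HTR1F itself had 4.01 Input CPM and LDOC1 0.0607, so the host of RNU6-3P was scarcely counted. Among the snoRNA genes, 661 of 1507 in mouse and 576 of 941 in human lie inside another gene on their strand, and 0 and 3 of them had counts. HTSeq set aside as ambiguous 3.02% to 3.04% of records in mESC Input, 1.08% to 1.11% in mESC IP, 5.00% to 5.02% in K562 Input and 2.83% to 2.99% in K562 IP, and the part of this in the zeros was not tested.

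**Figure D1:**
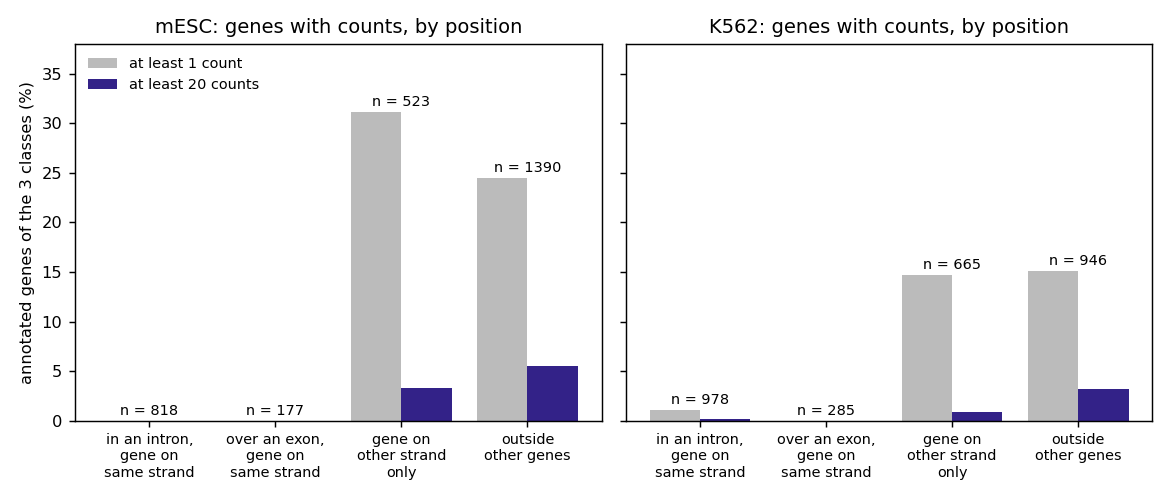
Percentage of annotated snRNA, snoRNA and scaRNA genes (y axis) with at least 1 count (grey) or at least 20 counts (blue) over the 6 libraries of mESC (left) and K562 (right), by position relative to other genes (x axis; n, annotated genes). Bars are missing for the 995 mouse genes inside a gene on their strand, since none had a count, and 30 of the 38 K562 members lay outside other genes.

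Most members lay outside other genes, 76 of 94 in mESC and 30 of 38 in K562. The letters of a C/D guide were about as frequent among the mouse snoRNA members as among all annotated snoRNA genes. The letters TGATGA within the first 25 bases with CTGA in the last 15, as in boxes C and D, occurred in 302 of 1507 mouse snoRNA genes (20.04%), of which 292 lie inside a gene, and in 7 of the 33 members (21.2%). ACA at 3 bases before the end, as in H/ACA RNAs, occurred in 272 (18.05%) and in 9 members (27.3%), and 17 members had neither. Both searches read the transcript strand alone. Of the 7 K562 snoRNA members, 0 had the C/D letters, 1 had the H/ACA letters and 6 had neither.

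The fit of mESC IP against Input covered 54 of the 94 members, of which 7 were higher in IP, 22 were lower and 25 were not called (edgeR quasi-likelihood test, adjusted p under 0.05). Over all 20244 genes tested, 39.9% were higher and 42.1% lower, and the median log2 IP/Input was -0.81 over the members tested against -0.17 over all genes. By class, 4 of 35 snRNA genes tested were higher and 16 lower (median -1.24), 2 of 16 snoRNA genes were higher and 5 lower (median -0.24), and of 3 scaRNA genes 1 was higher, 1 lower and 1 not called. These log2 values carry a scaling factor (TMM, trimmed mean of M-values). With library size alone, the scale of CPM, the median of all genes stood at 0.80 in place of -0.17, and 15 members (9946 of all genes) were higher and 5 (4861 of all genes) lower. A member can therefore have more CPM in every IP library and still a log2 below 0, and for members with a log2 near 0 the direction depended on the scaling. The filter on low counts bore on the split as well: 24 members passed it through Input alone, of which 14 were lower and 0 higher, 3 through IP alone, of which 2 were higher, and 25 through either kind, of which 5 were higher and 8 lower.

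Genes of these biotypes under the minimum of 20 counts had 1184 Input and 338 IP counts over 413 genes with a count. Their IP to Input ratio of summed CPM was 16.9, against 1.27 for the members tested and 1.19 for the members not tested. All genes under the minimum together had a ratio of 49.1. In CPM, with no filter beyond the minimum, 15 of the 94 members had all IP libraries above all Input libraries and 36 had all below, where 41.8% and 28.5% of all genes with at least 20 counts did (70.3% either way). Of the 94, 29 had 0 IP counts and 27 had 1 to 3.

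**Figure D2:**
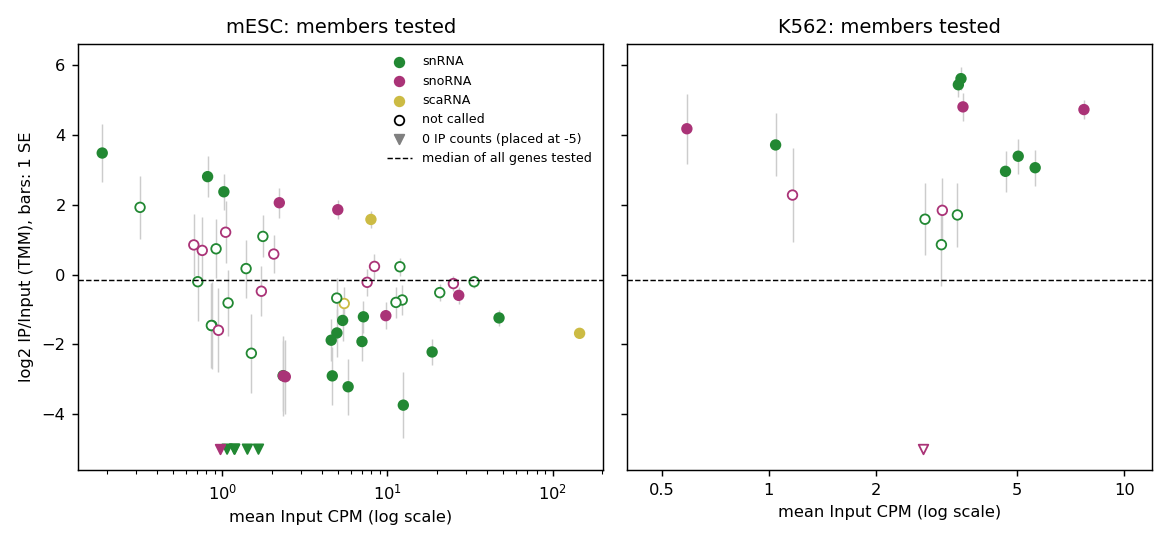
Log2 IP/Input from edgeR with 1 SE (y axis) against mean Input CPM on a log scale (x axis) for the members tested in mESC (left) and K562 (right), coloured by class, with filled points past the threshold and triangles for members with 0 IP counts, placed at the foot because their fitted value has no lower bound. The dashed line is the median of all genes tested (-0.17); most mESC points lie below it and most K562 points above it, and Gm24922, with 0 Input counts, is not drawn.

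U1 genes took opposite calls in mESC. Summed over all 127 annotated U1 genes, 35 of them with counts, U1 took 59.2 ± 7.68 CPM in Input and 82.1 ± 23.6 in IP (SD, n = 3 each), and the libraries of both kinds overlapped. Gm23804, the most counted U1 gene, which passed the filter through Input alone, had 461, 247 and 488 counts in Input and 0, 2 and 1 in IP. Its 12.5 ± 4.42 Input CPM and 1.70 ± 1.70 IP CPM did not overlap, and its log2 IP/Input was -3.74 ± 0.95 (SE; edgeR adjusted p = 0.00176). Gm25189, which differs from it at 6 bases, had 21, 34 and 24 in Input and 1, 8 and 10 in IP. All 3 IP values (2.11, 13.6 and 16.9 CPM) lay above all Input values (0.691 to 1.03 CPM), though IP replicate 1 gave 1 count, and the log2 was 2.80 ± 0.59 (edgeR adjusted p = 0.000371).

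Between these, Rnu1b1, an annotated U1b gene on chromosome 3, had 362, 379 and 407 Input counts and 12, 17 and 16 IP counts. Its CPM was higher in every IP library (27.1 ± 1.78 against 11.9 ± 0.527), but its log2 of 0.22 ± 0.25 was not called (edgeR adjusted p = 0.426). It was called higher with library size alone (log2 1.19, edgeR adjusted p = 0.00100), with a filter on Input counts (0.94, 0.00636) and with Input thinned to IP depth (1.72, 0.00199), and stood at -0.22, not called, with no filter. Its neighbours Rnu1b6 (28, 46 and 42 Input counts) and Gm25890 (35, 29 and 39) had no IP count, and both were called lower (edgeR adjusted p = 0.0210 and 0.0261). At these Input levels, 1.19 and 1.07 CPM, 3 counts over the IP libraries would already stand above Input, so no fold could be bounded, and both calls were lost with library size alone, with the filter on Input counts, under DESeq2 and without IP replicate 2 or 3, and that of Gm25890 also without IP replicate 1 or Input replicate 1 or 3. Both had passed the filter through Input alone. In the chromosome 12 run of 6 U1 members (chr12:54696782-54738622), 3 were lower, log2 ran from -3.74 to 1.92, and summed CPM was 0.704 times as high in IP. Gm25679 in that run, identical in sequence to Gm23804, gave 7, 14 and 10 Input counts and 1, 1 and 2 IP counts. It passed the filter through IP alone and was not called (log2 1.92 ± 0.90, edgeR adjusted p = 0.0577). The chromosome 3 run of 7 (chr3:96328425-96488893) had 1.53 times as much CPM in IP with 3 of 4 tested members lower.

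U2 was the most counted snRNA family in mESC, with 112 ± 1.19 CPM in Input and 115 ± 23.1 in IP, values that overlapped. Gm25360 gave 1333, 1569 and 1690 Input counts and 27, 15 and 23 IP counts. Its IP libraries (57.0, 25.5 and 38.8 CPM) fell on both sides of Input (46.0 to 48.6 CPM), and its log2 of -1.24 ± 0.22 passed the threshold (edgeR adjusted p = 7.55e-05). That call was lost with library size alone (-0.27, edgeR adjusted p = 0.325), with the filter on Input counts (-0.53, 0.0554) and with thinned Input (0.14, 0.769). Gm23971, 4 bases away in sequence, gave 980, 1092 and 1165 Input counts and 31, 35 and 28 IP counts. Its CPM was higher in every IP library, by 1.70 times (95% counting interval 1.37 to 2.09), and its log2 of -0.21 ± 0.19 was not called (edgeR adjusted p = 0.305). It was called higher with library size alone (0.77, edgeR adjusted p = 0.00265), with the filter on Input counts (0.51, 0.0290) and with thinned Input (1.12, 0.00711), and lower with no filter (-0.65, 0.00242), so its direction changed with these choices. Gm24950, identical in sequence to Gm23971, gave 43, 33 and 37 Input counts and 0 IP counts. It passed the filter through Input alone and was called lower (edgeR adjusted p = 0.0221). Equal CPM would have given it 1.93 IP counts, under the floor of 3 counts. Its call was lost with library size alone, under DESeq2, with the filter on Input counts and without any 1 of the IP libraries. Gm22973, on chromosome 12, gave 535, 656 and 612 against 1, 5 and 7. All 3 of its IP values lay below Input, with a CPM ratio of 0.422 (interval 0.224 to 0.724), and the log2 was -2.22 ± 0.38 (edgeR adjusted p = 5.83e-05), a call that held under each of the 12 settings in which it was tested.

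Among the tri-snRNP RNAs, U5 had the lowest and U6 the highest IP to Input ratio of summed CPM. The 11 annotated U5 genes together gave 319, 420 and 477 Input counts and 4, 0 and 0 IP counts, so that all IP libraries lay below Input and the CPM ratio was 0.226. U5 pairs with exon ends in the catalytic spliceosome. Gm25099, its most counted gene, had 155, 184 and 223 Input counts and 2, 0 and 0 IP counts, with a log2 of -3.21 ± 0.80 (edgeR adjusted p = 0.00149). The 3 U5 members clustered at chr4:117189942-117210959 were all called lower, with 953 Input and 3 IP counts between them. All 3 passed the filter through Input alone, and at equal CPM Gm25099 would have given 9.60 IP counts, Gm23143 3.93 and Gm23287 2.75, the last under the floor of 3 counts. For Gm23143, with 1 IP count, CPM overlapped between kinds and the 95% counting interval of the ratio (0.00642 to 1.43) included 1. Rnu5g, beyond that cluster and opposite Parp16, had 22, 34 and 28 Input counts and 1, 0 and 0 IP counts, and its log2 of -1.46 ± 1.24 was not called (edgeR adjusted p = 0.281). Gm22265, on chromosome 1 opposite Hhat, gave 40, 58 and 39 Input counts and 0 IP counts. It passed the filter through Input alone and was called lower (edgeR adjusted p = 0.0148). Equal CPM would have given it 2.34 IP counts, and the call was lost with library size alone and with the filter on Input counts.

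U6, the catalytic RNA, showed the reverse in sum: 426, 500 and 605 Input counts and 74, 57 and 65 IP counts over 706 annotated genes gave 15.7 ± 1.46 CPM in Input and 121 ± 31.3 in IP, which did not overlap. The ratio depended on the copies summed. The 17 members held 880 Input and 48 IP counts, a CPM ratio of 3.28 with all IP libraries above Input, while the genes under the minimum held 651 and 148, a ratio of 13.7. The counts of the whole U6 family were spread over 197 genes, of which the member Gm25256 held the most, 7.99%. Gm22307 had 30, 31 and 38 Input counts and 8, 4 and 5 IP counts, with a log2 of 2.37 ± 0.52 (edgeR adjusted p = 0.000554). Gm25256 had 49, 48 and 36 against 4, 0 and 1, and its log2 of 0.17 ± 0.83 was not called (edgeR adjusted p = 0.854). Gm23095 had 7, 3 and 8 against 2, 3 and 2, with a log2 of 3.48 ± 0.83 (edgeR adjusted p = 0.00105). Gm23095 was higher in all 3 IP libraries, but it passed the filter through IP alone and rests on 7 IP counts.

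U4, which keeps U6 inactive until splicing starts, lay between U5 and U6. Gm24265 gave 600, 687 and 719 Input counts and 11, 15 and 21 IP counts. Its CPM was higher in all 3 IP libraries (28.1 ± 6.50 against 20.7 ± 0.0600), while its log2 of -0.52 ± 0.24 was not called (edgeR adjusted p = 0.0573), but was called lower with no filter (-0.96, edgeR adjusted p = 0.000681) and without IP replicate 3 (-0.70, 0.0382). Its neighbour Gm24407 gave 135, 194 and 192 against 0, 4 and 3, with a log2 of -1.32 ± 0.58 (edgeR adjusted p = 0.0452), having passed the filter through Input alone. Of the minor spliceosome RNAs, Rnu12 gave 179, 234 and 270 Input counts and 4, 1 and 1 IP counts, with overlapping CPM and a log2 of -1.92 ± 0.57 (edgeR adjusted p = 0.00536), a call lost with library size alone (-0.95, edgeR adjusted p = 0.183) and with the filter on Input counts (-1.21, 0.0970). Rnu11 gave 340, 387 and 466 against 16, 4 and 4. IP replicate 1 held 16 of its 24 IP counts, and its log2 of -0.73 ± 0.42 (edgeR adjusted p = 0.121) became -1.79 and passed the threshold without that library, as it did with no filter (-1.17).

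**Figure D3:**
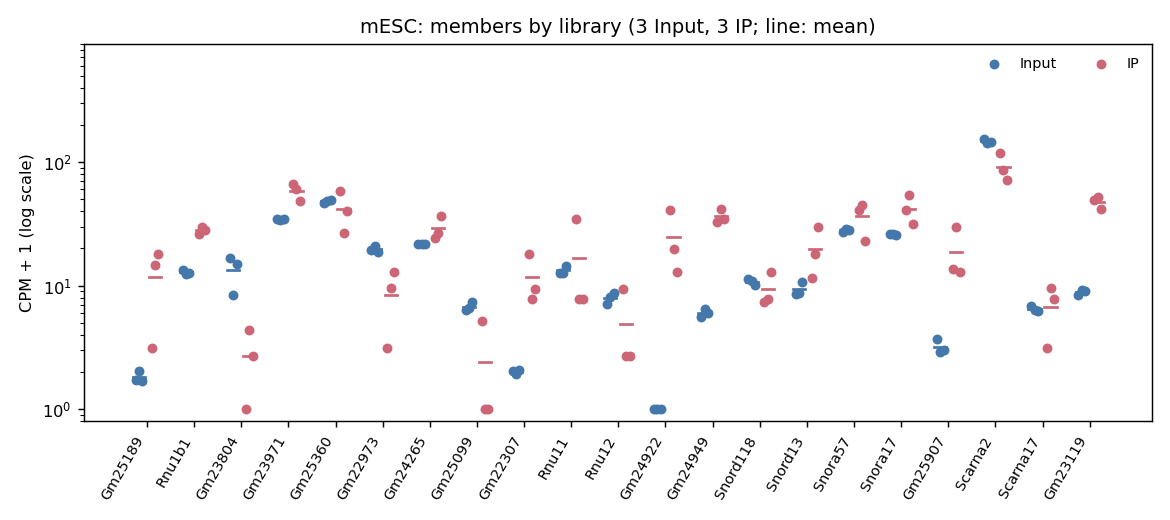
CPM plus 1 on a log scale (y axis) of 21 named mESC members (x axis) in the 3 Input libraries (blue) and the 3 IP libraries (red), with a line at each mean. Gm24949, Gm23119, Gm25907 and Gm22307 have every IP point above every Input point, Gm23804, Gm22973 and Scarna2 have every IP point below, and Gm24922 has Input points at 0 counts.

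The U3 gene Gm24949 was higher in mESC IP. It gave 132, 181 and 173 Input counts and 15, 24 and 20 IP counts. All IP values (35.4 ± 4.78 CPM) lay above all Input values (5.00 ± 0.464 CPM), a ratio of 7.11 (95% counting interval 5.33 to 9.32) and a log2 of 1.86 ± 0.28 (edgeR adjusted p = 1.17e-05), and the call held under each of the 13 settings tried. It was the only one of 17 annotated U3 entries with a count. The Rnu3b genes lie in introns of Tex14, while Rnu3a and Gm23927, each annotated as a pair of overlapping entries, were at 0 as well. U8 (Snord118), which directs cleavage toward 5.8S and 28S rRNA, gave 297, 327 and 319 against 3, 4 and 7. Its CPM overlapped between kinds, and its log2 of -1.18 ± 0.38 was called lower (edgeR adjusted p = 0.00950), except with library size alone, with a filter on Input counts and without IP replicate 2. U13 (Snord13), which pairs with the 18S rRNA precursor, gave 220, 255 and 338 against 5, 10 and 17, and its log2 of 0.23 ± 0.35 was not called (edgeR adjusted p = 0.551) although its CPM was higher in every IP library. With library size alone (1.21, edgeR adjusted p = 0.00955) and with the filter on Input counts (0.95, 0.0374) it was called higher.

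Of the other snoRNA members with many counts, Gm25907, which has neither set of box letters, was called higher. The guide snoRNA Snora57 was called lower with a small log2 and an unsteady call, and Snora17 and Snord104 were not called. Snora57 gave 755, 924 and 939 Input counts and 19, 26 and 13 IP counts, with overlapping CPM. Its log2 of -0.60 ± 0.24 passed the threshold (edgeR adjusted p = 0.0313). It turned positive and was not called with library size alone (0.38), the filter on Input counts (0.12) and thinned Input (0.62). The call was also lost with RLE scaling (edgeR adjusted p = 0.115), with the replicate block (0.129), without any 1 of the Input libraries (0.108 to 0.144) and without IP replicate 3 (0.281). Snora17 gave 727, 836 and 863 against 19, 31 and 18, and its log2 of -0.26 ± 0.22 was not called (edgeR adjusted p = 0.283), while it was called higher with library size alone (0.71) and lower with no filter (-0.70). The box C/D RNA Snord104 gave 205, 280 and 245 against 3, 7 and 11 and was not called (log2 -0.22 ± 0.38, edgeR adjusted p = 0.591). Gm25907, a snoRNA entry on chromosome 7 for which RefSeq gave no family, gave 78, 64 and 70 against 6, 17 and 7. All its IP values (17.8 ± 9.63 CPM) lay above Input (2.21 ± 0.414 CPM), and its log2 was 2.05 ± 0.43 (edgeR adjusted p = 0.000348).

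The longest run of snoRNA members held 8 genes of the SNORD113/SNORD114 family, box C/D RNAs of the imprinted Dlk1-Dio3 region with no known rRNA target, and Gm25224, to which RefSeq gave no family. In the 9.60 kb at chr12:109679945-109689544, 9 members gave 943 Input counts and 6 IP counts, a CPM ratio of 0.374. All 10 annotated genes of the family together gave 898 and 9, a ratio of 0.573 with libraries that overlapped. Of the 4 tested, AF357341 (88, 67 and 75 Input counts against 1, 0 and 0), Gm23787 (62, 82 and 84 against 0, 0 and 1) and Gm25856 (23, 39 and 33 against 0, 0 and 0) were called lower. These 3 passed the filter through Input alone, and equal CPM would have given them 3.93, 3.90 and 1.62 IP counts, so that for Gm25856 a lower level was not detectable at this depth. The calls of AF357341 and Gm23787 rest on 1 IP count each. The 95% counting intervals of their CPM ratios (0.00642 to 1.43 and 0.00647 to 1.44) included 1. Gm22205 (62, 46 and 57 against 1, 1 and 2) was not called (log2 -0.48 ± 0.71, edgeR adjusted p = 0.538). No member of the run had more than 4 IP counts, and none of its tested members had a log2 above -0.48.

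Scarna2, which guides methylation of U2, had the most counts of any member: 4405, 4640 and 5025 in Input and 55, 50 and 42 in IP. All its IP values (116, 85.0 and 70.9 CPM) lay below Input (140 to 152 CPM), by a ratio of 0.612 (95% counting interval 0.516 to 0.719), and its log2 was -1.68 ± 0.14 (edgeR adjusted p = 2.44e-08), a call lost only with thinned Input (-0.43, edgeR adjusted p = 0.111) among the settings tried. The other two scaRNA members lie next to each other at chr18:74778391-74778700 and both carry the RefSeq name of scaRNA 17, a guide for minor and major snRNAs. Gm23119 gave 215, 273 and 283 Input counts and 23, 30 and 24 IP counts, with all IP values above Input (46.7 ± 5.49 against 7.94 ± 0.460 CPM) and a log2 of 1.58 ± 0.23 (edgeR adjusted p = 1.20e-05). Scarna17 gave 168, 179 and 181 against 1, 5 and 4, with overlapping CPM and a log2 of -0.83 ± 0.47 that was not called (edgeR adjusted p = 0.112) except with no filter (-1.27, 0.0252).

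Gm24922, on chromosome 12, has the biotype snRNA but no family name in RefSeq and no copy among these genes. It had 0 counts in each Input library and 19, 11 and 7 in IP, or 23.6 ± 14.8 IP CPM, which is at least 722-fold higher than 3 counts over the 3 Input libraries. It passed the filter through IP alone, and no peak overlapped it. The call was made under each setting in which it could be tested (edgeR adjusted p = 1.81e-07).

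In K562 the members tested were higher in IP or not called. Of 15 tested, 9 were higher, 0 lower and 6 not called, where 15.0% and 16.8% of all 14522 genes tested were higher and lower. By the filter on low counts, 9 members passed through either kind, of which 7 were higher, 2 through IP alone, both higher, and 3 through Input alone, none of them called. The median log2 was 3.06 over the members tested against -0.17 over all genes; 10 of the 15 had an unadjusted p under 0.05, and DESeq2 also called 0 lower among the 38. Scaling mattered little, with the median of all genes at 0.046 under library size alone and all 9 calls kept. A lower level was not detectable at this depth: 18 members had 0 IP counts and 9 had 1 to 3, and in CPM 11 had all IP libraries above Input and 18 all below, where 18.0% and 27.9% of genes with at least 20 counts did. Members not tested had an IP to Input ratio of summed CPM of 1.13, members tested 18.8, and genes of these biotypes under the minimum 4.58.

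All 4 U3 genes tested had log2 values above 2, and 3 of them were called. SNORD3A, the most counted K562 member, gave 91, 91 and 79 Input counts and 25, 26 and 23 IP counts. Its IP values (237 ± 8.37 CPM) were far above Input (7.70 ± 0.176 CPM), a ratio of 30.8 (95% counting interval 23.4 to 40.0) and a log2 of 4.72 ± 0.28 (edgeR adjusted p = 6.17e-38). SNORD3C, which faces it within 2.23 kb and differs at 1 of the bases printed, gave 44, 47 and 29 against 15, 12 and 9, with a log2 of 4.80 ± 0.40 (edgeR adjusted p = 6.01e-23). SNORD3B-2 gave 9, 5 and 6 against 1, 2 and 1 and was called (log2 4.17 ± 1.01, edgeR adjusted p = 0.000655), but it passed the filter through IP alone and rests on 4 IP counts. Its neighbour SNORD3B-1 gave 10, 2 and 26 against 1, 1 and 0, with Input counts from 2 to 26, and was not called (log2 2.27 ± 1.34, edgeR adjusted p = 0.198). U13 (SNORD13) gave 38, 31 and 35 against 1, 2 and 1, higher in every IP library but not called (log2 1.84 ± 0.91, edgeR adjusted p = 0.116), though DESeq2 called it (adjusted p = 0.0317).

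The U1 genes RNU1-27P and RNU1-28P had the largest log2 values of the K562 members tested. RNU1-27P gave 39, 47 and 32 Input counts and 20, 18 and 24 IP counts. Its IP values (202 ± 50.0 CPM) exceeded Input (3.47 ± 0.535 CPM) by 57.0 times (95% counting interval 41.2 to 78.1), with a log2 of 5.61 ± 0.33 (edgeR adjusted p = 1.21e-38). RNU1-28P, 9.68 kb from end to end with it and identical in sequence, gave 36, 49 and 31 against 17, 15 and 22, and a log2 of 5.43 ± 0.35 (edgeR adjusted p = 3.54e-34). RNVU1-31, 2 bases different, gave 34, 28 and 31 against 1, 2 and 0; its CPM overlapped and its log2 of 1.58 ± 1.03 was not called (edgeR adjusted p = 0.247). RNVU1-29, which has the same sequence as RNU1-27P, gave 12, 11 and 12 Input counts and no IP count and was not tested. The 2 chromosome 14 genes held 116 of the 127 IP counts of all 145 U1 genes.

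Of the other snRNAs in K562, both U4 members, the U6 gene RNU6-6P and the U2 gene RNU2-64P were called. RNU4-2 gave 50, 55 and 64 Input counts and 5, 7 and 7 IP counts, a log2 of 3.39 ± 0.50 (edgeR adjusted p = 3.09e-09), and RNU4-1, in the same 1.48 kb and 4 bases different, 52, 47 and 57 against 3, 7 and 3, a log2 of 2.95 ± 0.58 (edgeR adjusted p = 8.38e-06). RNU6-6P gave 68, 61 and 61 against 8, 7 and 2 (log2 3.06 ± 0.51, edgeR adjusted p = 1.81e-07), and RNU6-7 38, 32 and 44 against 1, 2 and 1 (log2 1.71 ± 0.91, edgeR adjusted p = 0.149, not called). RNU6-6P has 6 identical annotated copies. RNU6-1 and RNU6-2, each also with 6 identical copies, gave 27 and 45 Input counts and 0 IP counts. Equal CPM would give them 0.249 and 0.415 IP counts, and they were not tested. RNU2-64P, the U2 gene with the most counts, gave 9, 12 and 14 against 2, 2 and 1 and was called (log2 3.71 ± 0.90, edgeR adjusted p = 0.000435), having passed the filter through IP alone. The U5 genes were too thinly counted to compare: RNU5F-1 gave 32, 34 and 37 against 2, 0 and 0 (log2 0.85 ± 1.18, edgeR adjusted p = 0.627), where equal CPM would give 0.9496 IP counts, and RNU5A-1, RNU5B-1 and RNU5D-1 had 1, 1 and 0 IP counts in all. SNORA11F, on the strand opposite NUDT13, gave 33, 29 and 30 Input counts and 0 in IP, which no fold could be given for.

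**Figure D4:**
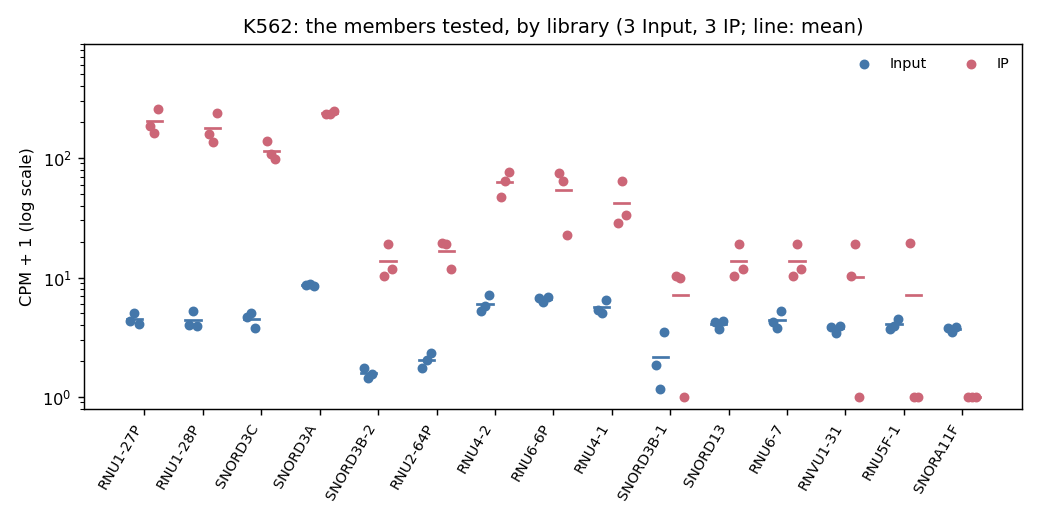
CPM plus 1 on a log scale (y axis) of the 15 K562 members tested (x axis) in the 3 Input libraries (blue) and the 3 IP libraries (red), with a line at each mean. RNU1-27P, RNU1-28P, SNORD3C and SNORD3A stand highest in IP, up to 237 CPM on average for SNORD3A, and SNORA11F has 0 IP counts.

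Summing all annotated genes of a class, with no minimum, kept the choice of members out of the comparison. In K562, snRNA genes took 62.5, 67.4 and 82.5 CPM of Input and 621, 719 and 709 CPM of IP, and snoRNA genes 23.2, 22.7 and 23.8 CPM of Input and 398, 413 and 376 CPM of IP. Neither pair overlapped, at ratios of 9.65 and 17.0 (exact two-sided permutation test, p = 0.1, the smallest that 3 against 3 allows; 0.125 adjusted over the class tests). In mESC, snRNA genes took 252, 243 and 259 CPM of Input and 530, 396 and 388 of IP, and snoRNA genes 106, 109 and 105 CPM of Input and 209, 345 and 226 of IP. These did not overlap either, at ratios of 1.74 and 2.44 (same exact test, p = 0.1, adjusted 0.125), but both ratios fell below 1, to 0.613 and 0.856, when records outside genes were kept in the denominator. Among single genes, 47.7% of all mESC genes tested, and 22.4% in K562, had every IP library above Input in CPM. With library size alone the median log2 of all genes tested was 0.80 in mESC and 0.046 in K562. These are values of single genes, unlike the summed class shares. Whether the mESC class ratios go beyond genes in general was not tested. The mESC scaRNA share overlapped (165, 154 and 158 CPM against 169, 153 and 118; exact p = 0.6). Shares are relative within a library, and in bulk libraries fewer cells carrying an RNA and less RNA per cell cannot be told apart.

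By family, the order from high to low IP to Input ratio was U6 (7.69), U3 (7.08), U1 (1.39), U4 (1.25), U2 (1.03) and U5 (0.226) in mESC, and U3 (27.2), U1 (21.9), U4 (10.2), U2 (7.78), U6 (4.37) and U5 (1.41) in K562. In mESC only U6 and U3 had all IP libraries above Input and only U5 had all below, and the ratios of U1, U4 and U2, whose libraries overlapped, cannot be ordered. Over the members alone the mESC ratios of U6 and U3 were 3.28 and 7.08, so that U3 stood first. In K562 U1, U2, U3, U4 and U6 had all IP libraries above Input, while U5 rested on 4 IP counts, all in replicate 1. The counts came from 1 of 17 U3 genes in mESC and 11 of 87 in K562, and from 197 of 706 and 121 of 1287 U6 genes.

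**Figure D5:**
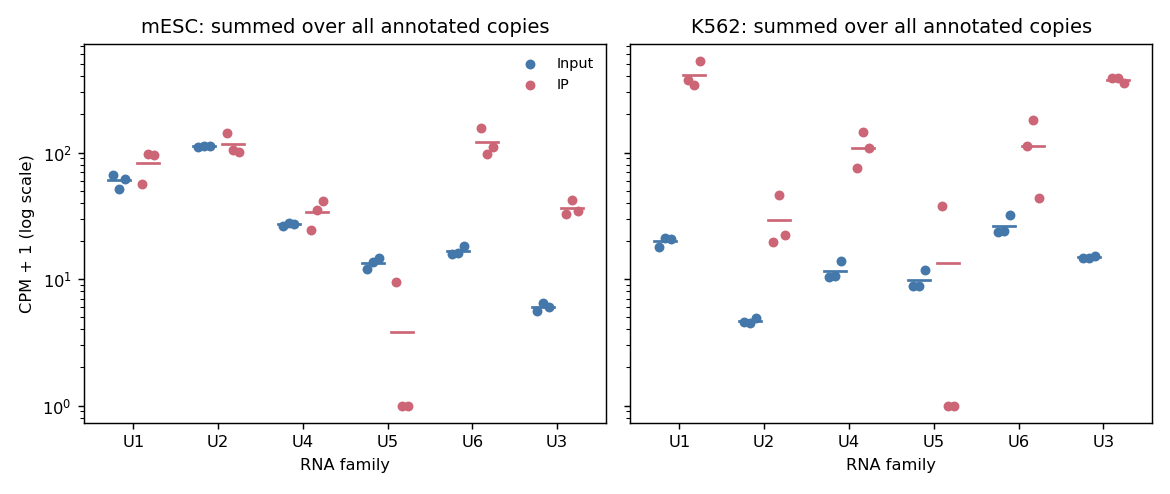
CPM plus 1 on a log scale (y axis), summed over all annotated copies of U1, U2, U4, U5, U6 and U3 (x axis), in the Input (blue) and IP (red) libraries of mESC (left) and K562 (right), with a line at each mean. U3 and U6 have every IP point above every Input point in both lines, and U5 has 2 of 3 IP libraries at 0 counts in both.

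Only U13 was counted in both lines under a shared symbol. Its log2 IP/Input was 0.98 ± 0.98 higher in K562 than in mESC, and the difference did not pass the threshold (edgeR interaction test, adjusted p = 0.501). The human forms of 7 further mouse members, SCARNA2, SNORA57, RNU11, SNORD118, SNORD104, RNU12 and SCARNA17, had 0 counts, and all but RNU11, which overlaps another gene in part, lie inside another gene on their strand in the human annotation. Whether the 2 lines differ for those RNAs could not be tested.

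Near-identical copies were common among members. At 95% identity over 90% of the length, 62 of 94 mESC members had another annotated copy, 23 of them identical, as did 20 of 38 K562 members, 8 of them identical. In mESC, 15 of 36 tested members with a copy and 7 of 18 without were lower, and 5 and 2 were higher. Over all mESC genes tested, 42.1% were lower and 39.9% higher. In K562, 12 of the 15 members tested had a copy, and 8 of these and 1 of the other 3, RNU2-64P, were called higher. Over all K562 genes tested, 15.0% were higher. Reads that HTSeq set aside for having several alignments made up 6.35% to 6.66% of records in mESC Input and 26.8% to 27.0% in IP, and 8.72% to 8.76% and 31.6% to 32.4% in K562, and their part in the calls of copied genes was not tested.

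Protein genes of the same machinery were nearly all lower in mESC IP, from lists chosen for their role. In mESC, 8 of 8 snoRNP core genes, 18 of 18 genes for snoRNP and scaRNP assembly or Cajal bodies, 24 of 25 for snRNA transcription and 3′ end processing and 37 of 38 snRNP protein genes were lower in IP, and none was higher, where 42.1% of all genes tested were lower and 39.9% higher. In K562, where 16.8% of all genes tested were lower and 15.0% higher, 0 of 8, 5 of 16, 7 of 25 and 4 of 37 tested were lower and 0, 1, 0 and 2 were higher. The medians ran from -2.09 to -1.74 in mESC and from -0.34 to 0.16 in K562, against -0.17 over all genes in each line. The mESC pattern was not particular to this machinery. In mESC the pluripotency markers were 5 of 5 lower (median -2.29), and of 4 fibroblast markers tested 3 were lower and 1 higher. The K562 markers went the other way, with 3 of 3 tested higher in mESC IP at low Input CPM.

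Peaks were deposited for the 3 mESC IP libraries, 11146, 15404 and 15797 of them, and none overlapped any of the 94 members on either strand. Of all genes with at least 20 counts 4678 of 21708 overlapped a peak on their strand in at least 1 replicate, and of those up to 300 bp long, 10 of 268 did. Gm24949, for all its 59 IP counts, had no peak.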

How the data were processed

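As deposited, the 12 libraries each have a list of unnormalised counts, 1 per gene, and the 3 mESC IP libraries also have MACS2 peak positions with a strand. According to the study's methods and processing notes, the authors used Trimmomatic 0.39 for trimming and HISAT2 2.1.0 for alignment to mm10 or hg38 (spike-in sequences added), and duplicates were removed ahead of peak calling. The counts end in HTSeq summary lines, and the counting mode, feature type, strand setting and treatment of duplicates are not given in the sources used here, so counts of overlapping, antisense and copied genes are uncertain. Summary lines (19.0% to 71.7% of records) stayed out of library sizes. Groups came from the titles, which the antibody label contradicts for some libraries. Spike-in reads were not used here, so values are relative within a library.

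Biotypes, positions and transcript sequences came from GENCODE M21 (GRCm38) and 44 (GRCh38), releases other than the study's, matching 99.9% and 99.2% of identifiers. The 45 human entries of the second pseudoautosomal copy, with 1 count in all, were left out. RNA family names of mouse genes came from RefSeq product names or, for 4 members, from near-identical copies. Copies were found with blastn (BLAST+ 2.17.0). Each line was fitted with edgeR 4.0.16 in R 4.3.3 on all genes (TMM scaling, filterByExpr, quasi-likelihood test, Benjamini-Hochberg adjustment at 0.05); a standard error is the absolute log2 divided by the root of F. The joint test was the interaction of line and library kind. Shares were compared by exact permutation tests. Intervals and floors (3 counts) cover counting error only, since PCR duplicates cannot be recognised without molecular identifiers. Tested on simulated data, the fits recovered 200 of 200 genes changed by 2 log2 units in mESC (15546 genes), 200 of 200 in K562 (13501) and 185 of 200 in the joint fit (11955). False calls made up 6.1%, 7.41% and 5.61% of the calls. The changed genes were drawn from those with many expected IP counts, more than any K562 member and most mESC members had. The simulations also changed only 200 genes each and gave all genes the same spread between libraries. The main fits called 82.0% of the mESC and 31.9% of the K562 genes tested. The recovery therefore does not measure how well changes in those members are found. Nor do the false calls measure the share of false calls in these data.

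Over genes, K562 Input replicates 1 and 2 differed by no more than sampling noise (chi-square per degree of freedom 0.912), as did 1 and 3 (0.918), but over 20 bins of GC content they differed (27.2 and 18.3), so they were kept apart, and merging 1 and 2 was tried. Members and lists were chosen with earlier results of these data known. Genes named were the 5 members of each class with the highest Input CPM, the 5 largest and 5 smallest log2 values among called members without overlap and with at least 10 counts in the higher kind, members with a listed role, members of the joint test and, in K562, all members tested. Of these, Rnu1b2, Rnu2-10, RNU6ATAC and RNVU1-7, which have a listed role but were not tested, are not described. Gm23095 and other members named within a family, a run or the minimum were chosen after their values were seen. Alternatives were 2 other scalings, DESeq2 1.42.0, other filters, thinned Input, a replicate block and each library left out.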

Additional observations from a re-analysis of the deposited data

Results flagged for a closer look

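U3 snoRNA was also marked in data that the gene counts do not cover, the mESC peak lists. Of 9 U3 loci, 3 had a peak on their strand in all 3 IP replicates while their genes had 0 counts in every library: Rnu3b4 and Rnu3b2, both in introns of Tex14, and Gm23927 on chromosome 19. The Rnu3b4 peak ran from 87462215 to 87462492 on chromosome 11 in replicate 1 and reached 87462494 in the other two, so it began before the annotated gene start at 87462286. Rnu3b3 had a peak in 2 replicates and Rnu3a in 1. Rnu3b2, Rnu3b3 and Rnu3b4 are identical in sequence, so their peaks may not be separate. Of the other 2902 loci of these biotypes, 5 had a peak in 1 replicate and 0 in 2 or more. The counted U3 gene, Gm24949, had 59 IP counts and no peak, and it differs from Rnu3b4 at 9 of 215 bases. The deposited peaks carry no usable score, no Input peaks were used here, and whether reads of the U3 copies were shared among these loci was not tested.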

How the results depend on the processing

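Most values kept their direction and call. In mESC, library size alone gave 15 members higher and 5 lower in place of 7 and 22, a filter on Input counts gave 15 called with 6 lower, and Input thinned to IP depth left 9 members to test, of which 4 were higher and 0 lower. In K562 thinning left 4 tested, all 4 higher. DESeq2 called 10 higher and 16 lower in mESC. Leaving out 1 library gave 22 to 26 mESC calls, 7 to 8 higher and 14 to 18 lower (14 without IP replicate 2 or 3), and 9 in K562 throughout. Log2 values that changed sign, with a call in the main fit or in the other, were Gm23971 (0.77 with library size, 0.51 with the Input filter, 1.12 thinned), Snora57 (0.38, 0.12 and 0.62 likewise), Snora17 (0.71 with library size) and Gm25360 (0.14 thinned). Other sign changes came with no call in either fit. Among these, Gm24265 stood at 0.63 thinned, and Snord104, Rnu11 and Scarna17 at 0.75, 0.24 and 0.14 with library size. With no filter Snord13 stood at -0.21 and Rnu1b1 at -0.22. K562 RNU5F-1 fell to -7.38 with a library left out. With records outside genes in the denominator the mESC snRNA, snoRNA and scaRNA share ratios were 0.613, 0.856 and 0.324 and the K562 snRNA and snoRNA ratios 5.09 and 8.99. Over members alone the snRNA ratio was 1.25 in mESC and 11.1 in K562, and the K562 snoRNA ratio 19.7. Without 1 library the mESC scaRNA ratio ran from 0.852 to 1.01, passing 1 without IP replicate 3, and the K562 snRNA ratio from 9.11 to 10.5. The causes were not tested. A minimum of 50 counts left 56 members in mESC and 16 in K562, with 0 of the K562 members inside a gene, and identical copies alone numbered 23 and 8. The U13 difference between lines ran from 0.54 to 1.41 and could not be fitted after thinning. Replicate numbers paired the libraries weakly at most (same-number correlations 0.0030 to 0.0258, other-number correlations -0.0346 to 0.0158). The replicate block gave 24 mESC calls (7 higher, 17 lower), 9 in K562 and 1.07 for U13; the library best correlated had the same number for 3 of 3 Input and 2 of 3 IP libraries in mESC, and 2 of 3 of each in K562. IP depth was a limit: at 3 counts a single K562 IP library resolves no level under 27.0 CPM.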
